A study of Mus musculus with 7 samples.

Results

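The Hox genes are the 37 genes whose symbol is Hoxa, Hoxb, Hoxc or Hoxd followed by a paralogue number and that had a probe set listed with that symbol alone, out of 19937 genes on the array. Each had 1 such probe set. The Hoxa cluster contributed 10 genes, and the Hoxb, Hoxc and Hoxd clusters 9 each. Hoxb8 has no value of its own here. The samples were Tnc knockout fibroblasts (2 clones, expanded from tenascin-C knockout mice), Tnc knockdown fibroblasts (2 clones of wild-type cells stably carrying a short hairpin RNA against tenascin-C) and wild-type fibroblasts (3 clones). All were spontaneously immortalised mouse embryonic fibroblasts, given no treatment and grown for 2 days in medium with fetal calf serum before total RNA was taken. Each array is 1 clone, no group with a control hairpin is analysed here, and neither the strain nor the embryonic region the cells came from is stated, so clone, origin and genotype cannot be told apart. Tnc encodes tenascin-C, an adhesion-modulating glycoprotein of the extracellular matrix.

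Hox genes encode homeodomain transcription factors that give cells their position along the body axis. They lie in 4 clusters, and their order along a cluster follows the order of their domains in the embryo, with low paralogue numbers anterior and high ones posterior. Fibroblasts in culture keep a Hox pattern that reflects the body region they were taken from. Genes of the same paralogue number in different clusters descend from a common ancestral gene and overlap in function. Paralogue numbers 1 to 3 are called anterior here (7 genes), 4 to 8 central (14 genes) and 9 to 13 posterior (16 genes).

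Tnc itself read 8.05 and 8.51 (log2 signal) in knockout, 7.34 and 6.52 in knockdown, and 10.89, 11.42 and 11.38 in wild type, so the arrays of both deficient groups lay below all wild-type arrays. Of 11 fibroblast markers, 10 lay above the 75th percentile of every array, and Lum was the exception. None of the marker genes of epithelial, endothelial, macrophage and blood, skeletal muscle, neural or germ and stem cells lay above the 75th percentile on every array. No marker of any of these lists passed the gene test in any comparison (0 calls by limma). Over all tested genes 0.167% passed in knockout, 0.0179% in knockdown and 0.375% between both. The summed signal of the fibroblast list was 15.02 to 15.13 in knockout, 15.12 to 15.15 in knockdown and 14.65 to 15.01 in wild type on the log2 scale. That of the skeletal muscle list was 8.2 to 8.63 in knockout, above 7.75 to 7.89 in knockdown and 7.89 to 8.07 in wild type. Its highest gene, the actin gene Acta1, read 8.08 and 7.53 in knockout, 6.73 and 6.55 in knockdown, and 6.87, 6.95 and 6.93 in wild type (adjusted p = 0.124 in knockout against wild type). The defining muscle genes Myod1 and Myog were at 5.399 to 5.42 and 4.73 to 4.81 in knockout, against 5.56 to 5.98 and 4.61 to 5.29 in wild type. The part of these lists in the results was not tested. Knockout array 2 stood apart in Xist, the X-inactivation RNA, at 8.80 against 3.51 to 3.77 elsewhere. The Y-linked gene Eif2s3y was at 3.77 on knockout array 2 and 5.46 on knockdown array 2, against 7.51 to 8.78 elsewhere. The Hox differences that rest on knockout array 2 are therefore also given without it.

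The Hox genes with the largest differences between knockout and wild-type clones lay in 1 stretch of the Hoxc cluster. Hoxc5, Hoxc6 and Hoxc8 rose 15.6-fold to 19.6-fold in knockout over wild-type fibroblasts, and Hoxb2 rose 2.77-fold. Hoxc4 and Hoxc9, which flank the 3 risen Hoxc genes, were also higher on both knockout arrays without passing the test. In knockdown fibroblasts none of the 37 Hox genes passed. Hoxa2 was the Hox gene that was lower in knockout than in knockdown fibroblasts and passed.

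**Figure D1:**
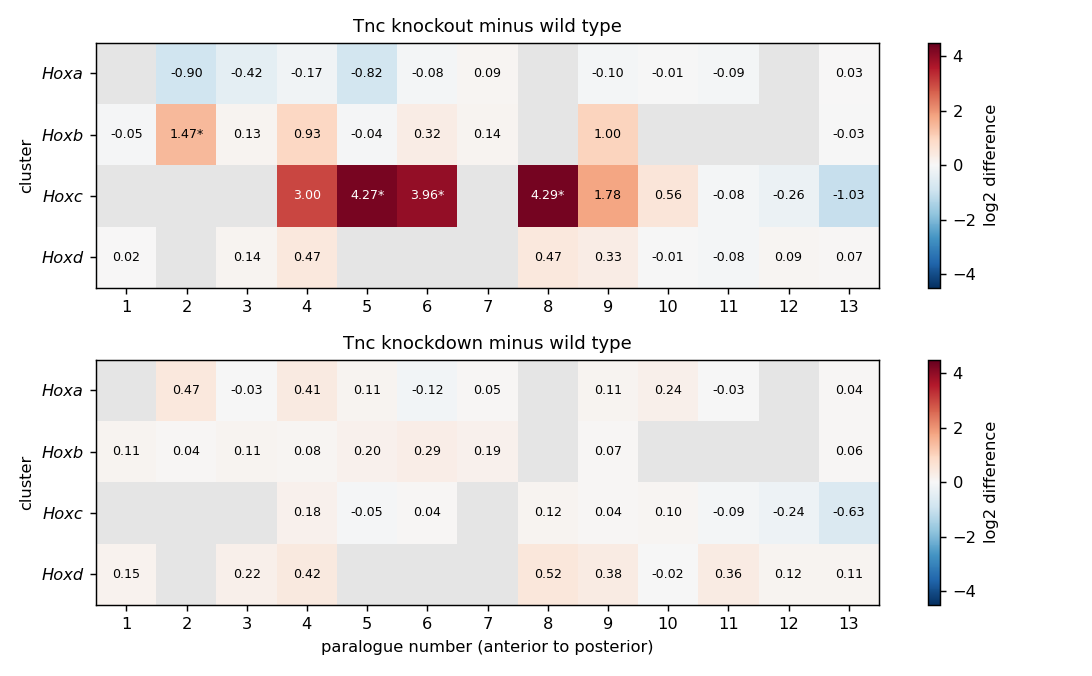
Difference in log2 signal from wild type for each measured Hox gene, by cluster (rows) and paralogue number (columns), in Tnc knockout (top, 2 clones against 3) and Tnc knockdown (bottom, 2 clones against 3). Red is higher and blue lower than wild type, grey marks positions without a gene or without a value, and asterisks mark a limma adjusted p under 0.05. The strongest colours are Hoxc5 (4.27), Hoxc6 (3.96) and Hoxc8 (4.29) in knockout, while the knockdown values lie between -0.63 and 0.52.

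The Hox signals ran from background to moderate. The log2 signal of a probe set also depends on its probes, so genes are placed only against the spread of all probe sets on the same array. The 8 genes Hoxa4, Hoxa5, Hoxa7, Hoxb1, Hoxb3, Hoxd3, Hoxd8 and Hoxd9 lay above the array median on all 7 arrays. The 12 genes Hoxa9, Hoxa11, Hoxa13, Hoxb5, Hoxb6, Hoxb13, Hoxc10, Hoxc11, Hoxd1, Hoxd10, Hoxd12 and Hoxd13 lay below it on all 7, so of the 16 posterior genes 9 were in this low group. The other 17 genes lay above it on some arrays and below it on others. Knockout array 1 had 15 Hox genes above its median and knockout array 2 had 22, against 13 and 14 in the knockdown clones and 14, 13 and 13 in the wild-type clones. Above the 75th percentile lay Hoxa5 on 5 arrays and Hoxc5, Hoxc6, Hoxc8 and Hoxd8 on 2 each. All 37 genes passed the filter on low values, which asked for a signal above the 25th percentile on at least 2 arrays. Hoxc4 passed it only through the 2 knockout arrays.

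In the Hoxc cluster on chromosome 15, Hoxc8 (gene identifier 15426, probe set 10427290), which helps pattern the thorax and brachial motor neurons, had log2 signals of 9.84 and 9.015 on the knockout arrays. It stood at 5.38 and 5.145 in knockdown and at 5.075, 5.01 and 5.33 in wild type. The knockout arrays were thus high and the other 5 low, with no overlap. Its difference from wild type was 4.29 ± 0.25 (SE, 2 clones against 3, limma adjusted p = 0.00545).

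Hoxc6 (gene identifier 15425, probe set 10427293), a central gene expressed from the forelimb level backwards, stood at 8.24 and 8.48 in knockout, 4.45 and 4.42 in knockdown, and 4.03, 4.57 and 4.59 in wild type. The knockdown arrays lay inside the wild-type range. Its rise in knockout was 3.96 ± 0.19 (SE, limma adjusted p = 0.00393). Hoxc5 (gene identifier 15424, probe set 10427297), its neighbour in the cluster, stood at 8.12 and 8.89 in knockout, 4.16 and 4.19 in knockdown, and 4.05, 4.13 and 4.51 in wild type. Again only the knockout arrays were high, and the rise was 4.27 ± 0.247 (SE, limma adjusted p = 0.00545).

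Hoxc4 (gene identifier 15423, probe set 10427303), the most anterior gene of this cluster, was high on the knockout arrays at 5.295 and 7.40, against 3.61 and 3.44 in knockdown and 3.28, 3.30 and 3.46 in wild type. The knockout clones did not overlap the others but lay 2.11 apart, and the difference did not pass (limma adjusted p = 0.125). All 5 other arrays were below their 25th percentiles, which ran from 4 to 4.054. Set against that percentile on the wild-type arrays (mean 4.02), the knockout mean of 6.35 was at least 5.01-fold higher, and the fitted difference of 3.00, measured against a wild-type mean of 3.345, is not a bound. Without knockout array 2 the fitted difference was 1.95. Hoxc9, which at thoracic level restrains limb-level motor neuron fates, stood at 7.38 and 6.51 in knockout, 5.32 and 5.11 in knockdown, and 5.06, 5.195 and 5.26 in wild type. Its difference was 1.78 ± 0.248 (SE, limma adjusted p = 0.0728), with no overlap between knockout and the other groups.

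The genes of the posterior end lay closer to wild type or below it. Hoxc10, a gene of the lumbar level and hindlimb, was at 4.57 and 5.28 in knockout, 4.63 and 4.30 in knockdown, and 4.28, 4.35 and 4.47 in wild type. Its difference in knockout was 0.56 (limma adjusted p = 0.376), and 0.205 without knockout array 2. Hoxc11 differed by -0.08 and Hoxc12 by -0.26. Hoxc13, a regulator of hair and nail keratins, was at 4.58 and 5.79 in knockout, 5.39 and 5.77 in knockdown, and 7.30, 6.11 and 5.23 in wild type. The wild-type clones themselves spanned 2.07, the widest range of any Hox gene in that group, and its differences of -1.03 and -0.63 did not pass (adjusted p = 0.542 and 0.701). Over Hoxc5, Hoxc6 and Hoxc8 the differences in knockout ran from 3.96 to 4.29, and over the 5 posterior Hoxc genes from -1.03 to 1.78. Wild-type signals of Hoxc5 and Hoxc6 (means 4.23 and 4.40) were close to the 25th percentile, which limits their folds as well.

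**Figure D2:**
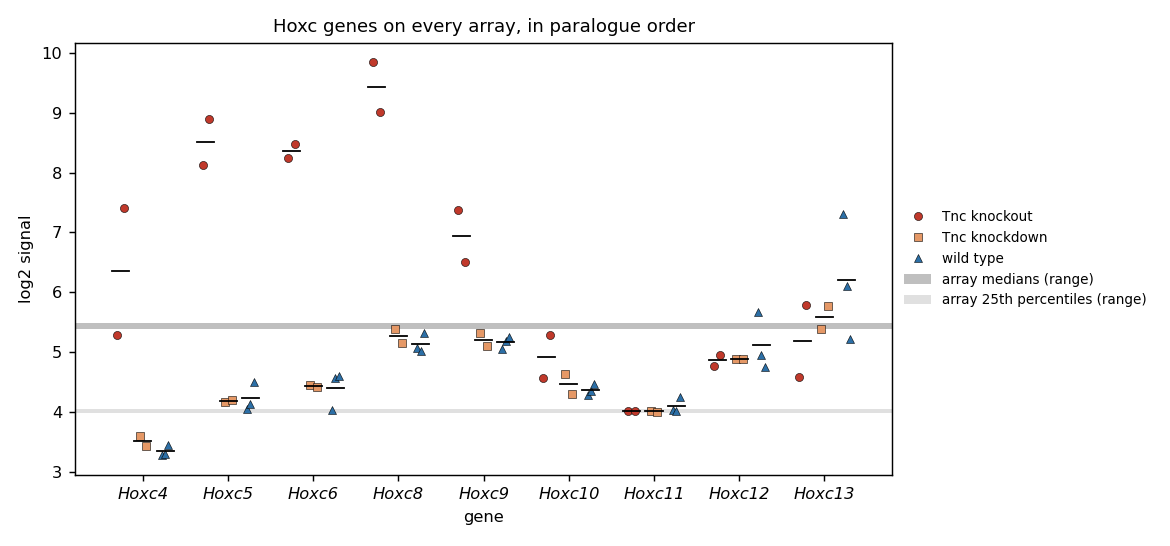
Log2 signal of each Hoxc gene on every array, in paralogue order, for Tnc knockout (circles), Tnc knockdown (squares) and wild type (triangles), with group means as short lines and grey bands for the range of array medians and 25th percentiles. The knockout arrays stand apart from Hoxc4 to Hoxc9, at 9.84 and 9.015 for Hoxc8, while the groups overlap from Hoxc11 to Hoxc13.

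In the bulk RNA of a clone, a larger share of expressing cells and more RNA per cell cannot be told apart. The 2 knockout clones differed in their order from gene to gene: Hoxc4, Hoxc5 and Hoxc6 were higher on knockout array 2 than on array 1, by 2.11, 0.77 and 0.235, and Hoxc8 and Hoxc9 were lower on it, by -0.83 and -0.87.

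The genes next to the cluster had smaller differences, and none passed. On the Hoxc13 side, the nearest array genes Calcoco1, Mir688, Atp5g2, Atf7 and Npff differed by 0.83, 0.05, 0.44, 0.42 and 0.04 in knockout. On the Hoxc4 side, Smug1, Cbx5, Nfe2 and Copz1 differed by 0.23, 0.40, 0.002 and 0.47. Calcoco1, which encodes a coiled-coil transcriptional coactivator and is the nearest of them to Hoxc13, was at 8.67 and 8.28 in knockout, 8.325 and 8.10 in knockdown, and 7.57, 7.70 and 7.65 in wild type. Both deficient groups were above wild type for it (adjusted p = 0.0983 and 0.192). Of the 40 array genes nearest the ends of all 4 clusters, 39 were tested and limma called 0 in each comparison, against 0.167% of all genes in knockout and 0.0179% in knockdown. Arrays did not overlap for 9 higher and 1 lower in knockout (13.2% and 15.3% of all genes) and for 14 higher and 2 lower in knockdown (17.5% and 12.9%).

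**Figure D3:**
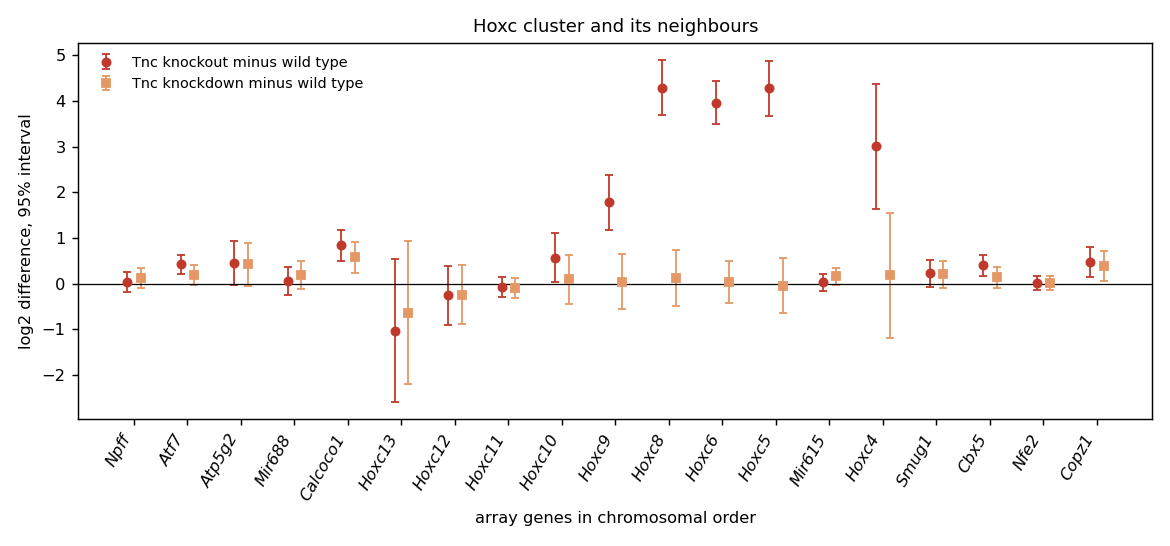
Log2 difference from wild type, with its 95% interval, for array genes across the Hoxc cluster and its neighbours in chromosomal order, in Tnc knockout (circles) and Tnc knockdown (squares). Values near 4 in knockout are limited to Hoxc5, Hoxc6 and Hoxc8, flanked by Hoxc4 (3.00) and Hoxc9 (1.78), with no neighbour outside the cluster above 0.83.

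Several microRNA genes lie inside the clusters, and the mature products of the miR-196 and miR-10 families are shown because members of both repress Hox transcripts. The probe set of Mir196a-2, which lies between Hoxc9 and Hoxc10, stayed at 3.66 to 4.24 on all arrays, and those of Mir196a-1, Mir10a and Mir10b at 2.57 to 3.44, too low to be tested. Mir615 comes after Hoxc5 and before Hoxc4 in the order of gene starts, inside the stretch with the largest differences. That order does not show whether it lies within Hoxc5. It read 7.14 and 7.13 in knockout, 7.23 and 7.30 in knockdown, and 7.02, 7.14 and 7.17 in wild type, with knockout inside the wild-type range (difference 0.02, adjusted p = 0.916). Mir196b was tested and differed by -0.10 in knockout (adjusted p = 0.808). Such a probe set does not measure the mature microRNA separately. The sequences are from RefSeq (GRCm38.p6), 5′ to 3′, with the seed (bases 2 to 8) in capitals; each pair shares its seed.
mmu-miR-196a-5p: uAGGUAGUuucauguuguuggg
mmu-miR-196b-5p: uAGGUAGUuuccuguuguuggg
mmu-miR-10a-5p: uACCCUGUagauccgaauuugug
mmu-miR-10b-5p: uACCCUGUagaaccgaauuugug

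The 4 calls in knockout were 4 of 37 genes higher and 0 lower, against 0.119% of 16801 tested genes called higher, 0.0476% called lower and 0.167% in either direction. At an unadjusted p under 0.05, limma gave 9 higher and 3 lower, against 7.33% and 5.5% of all genes. Arrays did not overlap for 9 genes higher and 3 lower, against 13.2% and 15.3% of all genes. The median difference over the 37 genes was 0.07 and that over all tested genes -0.03. Hoxc4, which passed the filter only through the knockout arrays, is among the higher genes of these counts. By cluster, all 3 genes lower by non-overlapping arrays were Hoxa genes, and 6 of the 9 higher ones were Hoxc genes. The call of Hoxc6 held in 13 of 15 alternative settings and those of Hoxc5, Hoxc8 and Hoxb2 in 8 each. These are not 15 separate checks. In this comparison, leaving out either knockdown array gives the same result as fitting only the 2 groups compared. The count was 4 without wild-type array 1. It was 1, Hoxc6 alone, without wild-type array 2 or 3 and with only the 2 groups compared. Leaving out a knockout or knockdown array leaves 1 clone in that group, so no count is given for those fits. With each array centred on its median 6 rose and 1 fell. Under the stricter filter (above the median on 2 arrays) these 4 genes passed only through the knockout arrays, so that setting adds no support. Without knockout array 2, which leaves 1 knockout clone, the differences were 3.89 for Hoxc5, 3.845 for Hoxc6, 4.71 for Hoxc8 and 1.38 for Hoxb2. Over these 15 settings the differences stayed between 3.78 and 4.08 for Hoxc6, 3.89 and 4.66 for Hoxc5, and 3.88 and 4.71 for Hoxc8. Many of the settings could not move them, because each difference is that between group means. A filter, the probe set rule (1 probe set per Hox gene), a left-out knockdown array and the fit of 2 groups leave those means unchanged.

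In the Hoxb cluster on chromosome 11, Hoxb2 (gene identifier 103889, probe set 10380660), which helps specify the hindbrain and facial motor neurons, rose in knockout. It stood at 6.50 and 6.68 in knockout, 5.10 and 5.23 in knockdown, and 5.14, 5.17 and 5.06 in wild type. The knockout arrays were above all others, and the difference was 1.47 ± 0.0909 (SE, 2 clones against 3, limma adjusted p = 0.00674). Hoxb4, known for its effect on blood stem cells, was at 5.78 and 5.79 in knockout, 4.93 and 4.94 in knockdown, and 4.84, 4.69 and 5.01 in wild type. It showed the same order of groups, with a difference of 0.93 ± 0.105 (SE) that did not pass (limma adjusted p = 0.0502). It was called in 4 of 15 alternatives. Among them was the stricter filter (above the median on 2 arrays), which Hoxb4 passed only through the knockout arrays. Hoxb3, which lies between them in paralogue order, differed by only 0.13 (adjusted p = 0.665).

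Hoxb9, a posterior gene of the thoracic level, was high on 1 knockout array. It read 5.66 and 7.41 in knockout, 5.64 and 5.57 in knockdown, and 5.62, 5.32 and 5.68 in wild type, so knockout array 1 lay inside the wild-type range (difference 1.00, adjusted p = 0.452, and 0.12 without knockout array 2). The remaining Hoxb genes were Hoxb1, Hoxb5, Hoxb6, Hoxb7 and Hoxb13, with differences between -0.05 and 0.32 in knockout and none passing. Hoxb1, a hindbrain gene, had the lowest of these, at 6.04 and 5.97 in knockout against 6.04, 5.965 and 6.17 in wild type (difference -0.05, adjusted p = 0.863).

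In the Hoxa cluster on chromosome 6, 8 of 10 genes were lower in knockout than in wild type, and none passed in that comparison. Over all tested genes 42.6% were higher in knockout. Several of these Hoxa differences were small. Without knockout array 2, Hoxa10 and Hoxa11 turned positive (0.04 and 0.06), and Hoxa7 and Hoxa13 turned negative (-0.225 and -0.006). Hoxa2 (gene identifier 15399, probe set 10544751), which sets the identity of the second branchial arch, was at 5.21 and 5.42 in knockout, 6.675 and 6.68 in knockdown, and 6.08, 6.31 and 6.24 in wild type. The 3 groups did not overlap, with knockout lowest and knockdown highest. Its difference was -0.90 ± 0.103 (SE, limma adjusted p = 0.052) in knockout and 0.47 ± 0.103 (SE, adjusted p = 0.174) in knockdown. The knockout call was made in 3 of 15 alternatives, among them centring of each array.

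Hoxa5, a regulator of lung and cervicothoracic development, was at 6.84 and 6.72 in knockout, 7.96 and 7.47 in knockdown, and 7.64, 7.47 and 7.70 in wild type. The knockout arrays were below all others (difference -0.82 ± 0.159 SE, adjusted p = 0.131). Hoxa3, needed for the thymus and parathyroid, was at 5.24 and 4.90 in knockout against 5.32, 5.55 and 5.62 in wild type (difference -0.42, adjusted p = 0.353). Hoxa7 had the largest positive difference of the cluster, 0.09, from 5.73 and 6.36 in knockout and 5.98, 5.90 and 5.98 in wild type (adjusted p = 0.86). Hoxa4, Hoxa6, Hoxa9, Hoxa10, Hoxa11 and Hoxa13 differed by -0.17 to 0.03. Hoxaas2, a non-coding RNA gene inside this cluster, was at 5.67 and 5.34 in knockout, 6.35 and 6.46 in knockdown, and 6.095, 6.45 and 6.02 in wild type. It was lower on both knockout arrays, next to Hoxa2 and Hoxa3, without passing (difference -0.68, adjusted p = 0.185).

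In the Hoxd cluster on chromosome 2 no gene passed. Hoxd4 was at 5.22 and 5.54 in knockout, 5.45 and 5.22 in knockdown, and 4.72, 4.91 and 5.115 in wild type. Both deficient groups were above wild type, by 0.47 (adjusted p = 0.321) and 0.42 (adjusted p = 0.325). Hoxd8 was at 6.345 and 8.44 in knockout, 7.65 and 7.23 in knockdown, and 6.90, 6.66 and 7.205 in wild type. The knockout clones lay on opposite sides of the wild-type range, so the difference of 0.47 (adjusted p = 0.749) was -0.575 without knockout array 2. Hoxd9 had the same split, at 5.70 and 6.81 in knockout against 5.74, 6.00 and 6.05 in wild type (difference 0.33, adjusted p = 0.679, and -0.23 without knockout array 2). Hoxd1, Hoxd3, Hoxd10, Hoxd11, Hoxd12 and Hoxd13, the last a digit gene, differed by -0.08 to 0.14.

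**Figure D4:**
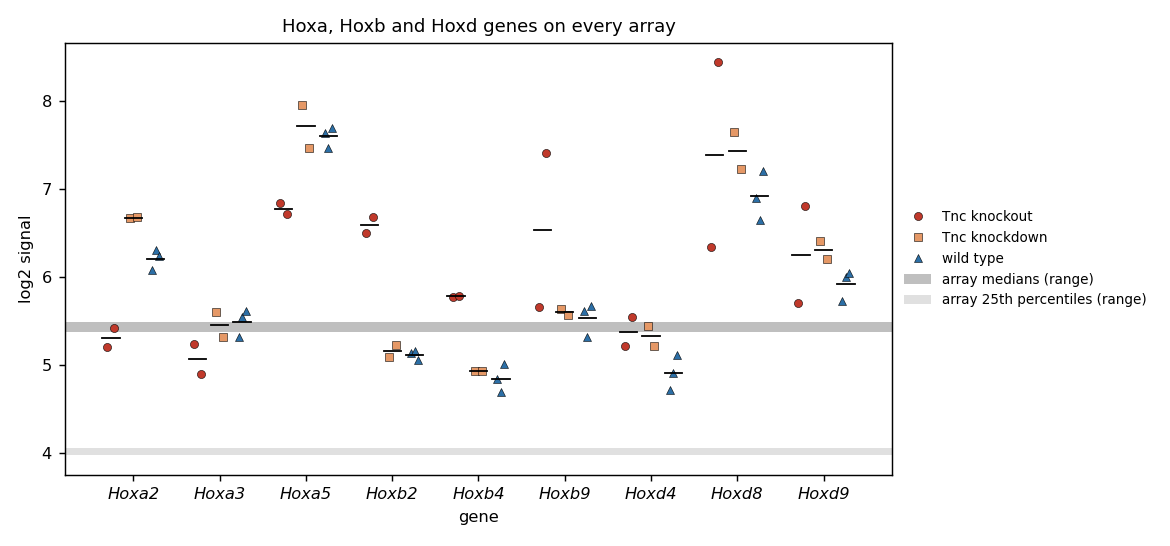
Log2 signal of 9 Hoxa, Hoxb and Hoxd genes on every array for Tnc knockout (circles), Tnc knockdown (squares) and wild type (triangles), with group means as short lines and grey bands for the range of array medians and 25th percentiles. Hoxa2 and Hoxa5 are lowest and Hoxb2 and Hoxb4 highest on both knockout arrays, while Hoxb9, Hoxd8 and Hoxd9 are high on 1 knockout array.

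Several paralogue sets held genes of both signs, while the measured genes of paralogues 7 and 8 were all higher and those of paralogue 11 all lower in knockout. Without knockout array 2 the sign turned for Hoxa7 (-0.225), Hoxd8 (-0.575) and Hoxa11 (0.06). In other paralogue sets it turned for Hoxd9 (-0.23), Hoxa10 (0.04) and Hoxa13 (-0.006), and Hoxb9 was at 0.12. With all arrays, paralogue 2 read -0.90 for Hoxa2 and 1.47 for Hoxb2. Paralogue 4 read -0.17, 0.93, 3.00 and 0.47 for Hoxa4, Hoxb4, Hoxc4 and Hoxd4. Paralogue 5 read -0.82, -0.04 and 4.27 for Hoxa5, Hoxb5 and Hoxc5. Paralogue 9 read -0.10, 1.00, 1.78 and 0.33 for Hoxa9, Hoxb9, Hoxc9 and Hoxd9. These values are a description with no test between clusters. Paralogue 11 varied least with all arrays, with all 3 genes between -0.09 and -0.08, and the 4 genes of paralogue 13 had a median of -0.002. Without knockout array 2, Hoxa11, Hoxc11 and Hoxd11 were at 0.06, -0.08 and -0.19.

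Promoters are printed for Hoxa2, called between knockout and knockdown, and for 3 of the 4 genes of paralogue 4, whose values in knockout differed by cluster. They are RefSeq windows (GRCm38.p6) from 250 bases before to 50 after a gene start, found for 21 of the 37 genes. Hoxa4, the remaining gene of paralogue 4 (-0.17 in knockout), and Hoxb2, Hoxc5, Hoxc6 and Hoxc8, the genes called in knockout, were not among them, so neither the windows nor the motif counts cover these. Hoxa2 lies at chr6:52164782-52165081, minus strand, Hoxb4 at chr11:96318017-96318316, plus strand, Hoxc4 at chr15:103034145-103034444, plus strand, and Hoxd4 at chr2:74721728-74722027, plus strand. Capitals mark matches on either strand to the Pbx-Hox motif TGATNNAT, the Meis motif TGACAG or the retinoid receptor half-site AGGTCA, read on the other strand as TGACCT; no matches overlap.
Hoxa2: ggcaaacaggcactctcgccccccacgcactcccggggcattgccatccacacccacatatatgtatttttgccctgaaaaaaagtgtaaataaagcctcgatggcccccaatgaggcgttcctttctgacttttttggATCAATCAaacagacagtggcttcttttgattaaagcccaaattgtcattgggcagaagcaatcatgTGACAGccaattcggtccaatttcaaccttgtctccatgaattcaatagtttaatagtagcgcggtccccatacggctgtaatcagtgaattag
Hoxb4: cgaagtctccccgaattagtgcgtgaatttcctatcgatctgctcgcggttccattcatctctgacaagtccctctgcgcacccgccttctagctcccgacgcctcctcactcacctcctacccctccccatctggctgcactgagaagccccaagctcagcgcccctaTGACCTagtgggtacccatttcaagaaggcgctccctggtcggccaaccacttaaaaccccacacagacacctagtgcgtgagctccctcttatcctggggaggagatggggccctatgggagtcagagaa
Hoxc4: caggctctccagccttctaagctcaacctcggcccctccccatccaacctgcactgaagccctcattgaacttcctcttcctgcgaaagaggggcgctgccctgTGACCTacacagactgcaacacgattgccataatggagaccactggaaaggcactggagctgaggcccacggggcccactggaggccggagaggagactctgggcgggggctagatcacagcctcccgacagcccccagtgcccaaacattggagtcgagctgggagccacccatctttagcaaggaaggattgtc
Hoxd4: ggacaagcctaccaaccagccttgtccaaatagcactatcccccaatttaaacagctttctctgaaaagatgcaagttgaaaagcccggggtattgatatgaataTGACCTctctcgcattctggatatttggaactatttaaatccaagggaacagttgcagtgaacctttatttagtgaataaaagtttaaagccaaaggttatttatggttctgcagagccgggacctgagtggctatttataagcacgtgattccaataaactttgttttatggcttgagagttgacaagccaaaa

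The Hoxa2 window held 1 Pbx-Hox match starting at -111 and 1 Meis match at -44, and no retinoid half-site. The 3 paralogue 4 windows held 1 retinoid half-site each, starting at -81 in Hoxb4, -146 in Hoxc4 and -145 in Hoxd4. These 3 genes differed in knockout by 0.93, 3.00 and 0.47, and a link to the motif was not tested. Of all 32851 windows, 8.8% held the Pbx-Hox motif, 19.2% the Meis motif and 16.3% the half-site. Among 23 Hox windows, some genes having more than 1, these were 3, 2 and 7. GC content was 45.7% for Hoxa2, 58% for Hoxb4, 60.3% for Hoxc4 and 39.7% for Hoxd4, against a median of 52.7%.

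In knockdown against wild type, limma called 0 of 37 Hox genes, with 4 at an unadjusted p under 0.05, all higher. Over all tested genes 0% were called higher and 0.0179% lower, and 7.12% and 6.99% reached the unadjusted threshold. Arrays did not overlap for 9 genes higher and 0 lower, against 17.5% and 12.9% of all genes (30.5% in either direction). The 29 higher and 8 lower Hox genes had a median of 0.11. All tested genes had a median of 0.03, and 56.8% of them were higher. For the Hoxc genes that rose in knockout, the 95% interval of the knockdown difference was -0.65 to 0.55 for Hoxc5, -0.425 to 0.50 for Hoxc6 and -0.49 to 0.73 for Hoxc8.

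The knockdown values closest to a call were small and positive, that of Hoxa2 (0.47) first. Hoxd11, a gene of the forearm, was at 5.33 and 5.55 in knockout, 5.83 and 5.93 in knockdown, and 5.51, 5.55 and 5.51 in wild type, which put both knockdown arrays above the rest (difference 0.36, adjusted p = 0.196). Hoxa4 was at 7.37 and 7.325 in knockdown against 6.78, 6.91 and 7.14 in wild type (difference 0.41, adjusted p = 0.22). Hoxd3 was at 5.80 and 5.74 in knockdown against 5.43, 5.515 and 5.71 in wild type (difference 0.22, adjusted p = 0.395).

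Other knockdown values were smaller relative to their spread. The largest difference was that of Hoxd8 (0.52, adjusted p = 0.732) and the most negative that of Hoxc13 (-0.63). Among Hoxb genes Hoxb6 stood highest at 0.29 and Hoxb2 lowest at 0.04. Hoxa6 was the lowest Hoxa gene at -0.12, Hoxd10 the lowest Hoxd gene at -0.02, and Hoxc4 the highest Hoxc gene at 0.18. None of these passed.

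Knockout and knockdown clones were also compared directly, since both are set against the same wild-type arrays. This contrast tests a difference between the 2 groups of clones, in which clone, origin and genotype cannot be told apart. Of 37 Hox genes, 4 were higher and 1 lower in knockout, against 0.274% and 0.101% of all tested genes (0.375% in either direction). At an unadjusted p under 0.05, 7 were higher and 4 lower, against 9.05% and 8.87% of all genes. Arrays did not overlap for 8 higher and 7 lower, against 17.8% and 27.2% of all genes (45% in either direction). Hoxc5 was higher by 4.33 ± 0.27 (SE, 2 clones against 2, limma adjusted p = 0.00723), Hoxc6 by 3.92 ± 0.208 (0.00539), Hoxc8 by 4.17 ± 0.274 (0.00867) and Hoxb2 by 1.43 ± 0.0995 (0.00924). Hoxa2 was lower by -1.36 ± 0.113 (SE, limma adjusted p = 0.0198). Short of the threshold were Hoxb4 (0.85, adjusted p = 0.0543), Hoxc9 (1.74, 0.071), Hoxa5 (-0.94, 0.0922) and Hoxc4 (2.83, 0.117). The count of 5 was 3 without wild-type array 2 and 2 without wild-type array 3. It was 0 with only the 2 groups compared. Leaving out a knockout or knockdown array leaves 1 clone in that group, so no count is given for those fits.

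The clones within the knockout group were not alike. Of 37 Hox genes, 5 differed by over 1 on the log2 scale between the 2 knockout arrays, against 2.2% of all tested genes: Hoxc4, Hoxd8, Hoxb9, Hoxc13 and Hoxd9, by 2.11, 2.10, 1.75, 1.21 and 1.11, each higher on array 2. In knockdown 0 Hox genes differed by that much, against 1.43% of all genes, and in wild type 1 did, Hoxc13, against 2.38%. The median gap of a Hox gene was 0.208 between the 2 knockout arrays, against 0.156 over all tested genes, and 0.135 between the 2 knockdown arrays, against 0.141. Across the 3 wild-type arrays, a range not comparable with a gap of 2, it was 0.223 against 0.212. Knockout array 2 is also the array with high Xist and low Y-linked signals, and the part of that in the Hox values was not tested. Hoxc5, Hoxc6, Hoxc8 and Hoxb2 were high on both knockout arrays.

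**Figure D5:**
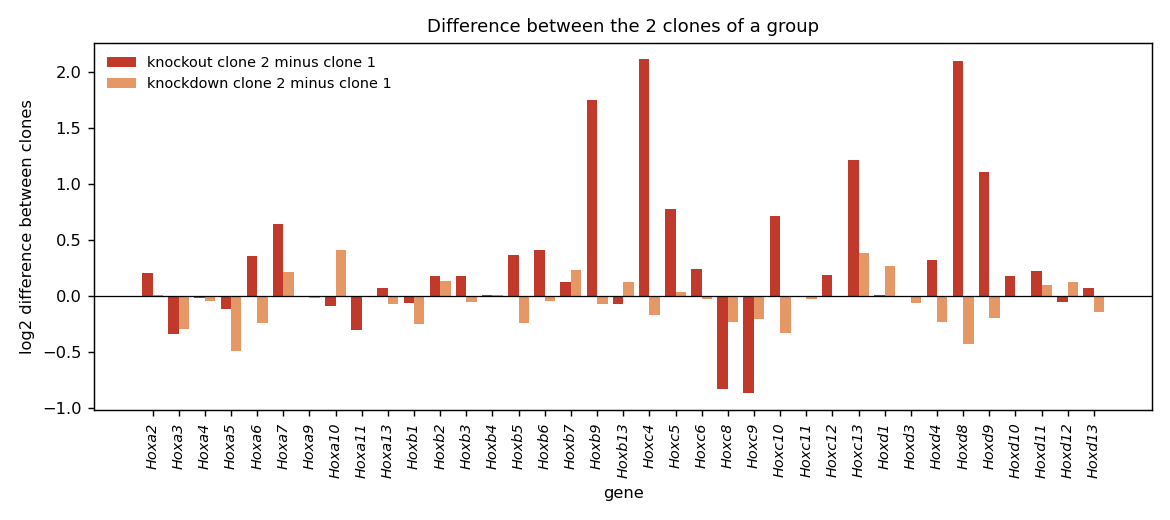
Log2 signal of clone 2 minus clone 1 for each Hox gene, for Tnc knockout (dark bars, left) and Tnc knockdown (light bars, right), ordered by cluster and paralogue number. Bars over 1 occur in knockout for Hoxb9, Hoxc4, Hoxc13, Hoxd8 and Hoxd9, and none of the knockdown bars reaches 0.5.

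Hox proteins bind DNA with TALE cofactors, and Polycomb and trithorax complexes hold Hox genes off or on, so genes of these groups were read as well. Of 8 tested TALE cofactors none passed in any comparison (0 by limma). Over all tested genes 0.167% passed in knockout, 0.0179% in knockdown and 0.375% between both, so 0 calls in so short a list is near that share. Meis2, a cofactor of anterior and limb tissue, was at 8.004 and 7.78 in knockout, 9.36 and 9.80 in knockdown, and 9.26, 9.77 and 9.29 in wild type. The knockout arrays were below all others (difference -1.55 ± 0.207 SE, adjusted p = 0.0686). Meis1 differed by -0.53 (adjusted p = 0.279), while Pbx3 and Meis3 differed by 0.30 and 0.40 in knockdown (adjusted p = 0.497 and 0.427).

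Of 26 tested Polycomb genes, 0 passed in knockout, 0 in knockdown and 1 between knockout and knockdown, against 0.167%, 0.0179% and 0.375% of all genes. That gene was Eed, a core subunit of the complex that methylates histone H3 on Lys27. It was at 8.19 and 8.21 in knockout, 7.46 and 7.20 in knockdown, and 8.03, 7.95 and 7.95 in wild type, so the knockdown arrays were the low ones. Its difference between knockout and knockdown was 0.87 ± 0.106 (SE, limma adjusted p = 0.0488), and in knockdown against wild type it was -0.65 (adjusted p = 0.117). Pcgf5, a subunit of a variant Polycomb complex, was at 8.23 and 8.96 in knockout, 6.87 and 7.02 in knockdown, and 6.995, 6.89 and 7.005 in wild type. The knockout arrays stood above all others (1.63 ± 0.208 SE, adjusted p = 0.0668). Pcgf2, a further ring-finger subunit, differed by 0.32 (adjusted p = 0.145), and Rbbp4, a histone chaperone, by -0.45 in knockdown (adjusted p = 0.162).

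None of 13 tested trithorax and activating chromatin genes passed, against 0.167% of all genes in knockout, 0.0179% in knockdown and 0.375% between both. The smallest p-values belonged to Kmt2d (0.34, adjusted p = 0.23) and Kdm6b (0.26, adjusted p = 0.348) in knockout, and to Psip1 (-0.99, adjusted p = 0.188) and Ash2l (-0.39, adjusted p = 0.374) in knockdown. Kmt2a, the mixed-lineage leukaemia methyltransferase that maintains Hox expression, differed by -0.05 in knockout and -0.30 in knockdown and was chosen for that role. Retinoid signalling and Cdx factors act upstream of Hox genes in the embryo. Of their 16 tested genes none passed, against the same shares of all genes. Dhrs3, a retinal reductase, differed by 1.59 in knockout (adjusted p = 0.118), and Cyp26b1, which degrades retinoic acid, by -1.14 (adjusted p = 0.193). In knockdown the receptor genes Rxra and Rarg differed by 0.56 and 0.60 (adjusted p = 0.208 and 0.241).

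Among 29 tested limb and regional transcription factors none passed, against 0.375% of all genes or less in each comparison. Nr2f1, an orphan nuclear receptor of head and neural crest tissue, was at 5.06 and 6.02 in knockout, 9.35 and 8.05 in knockdown, and 8.99, 8.89 and 8.64 in wild type. The knockout arrays were far below the rest, with a 9.85-fold difference (-3.30 ± 0.439 SE, adjusted p = 0.0686). Its relative Nr2f2 differed by -0.81 (adjusted p = 0.223). Pitx1, a hindlimb gene, and Otx1, a forebrain gene, differed by 0.49 and 0.37 in knockdown (adjusted p = 0.161 and 0.252). The forelimb gene Tbx5 and the hindlimb gene Tbx4 differed by 0.02 and -0.03 in knockout, chosen for those roles.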

How the data were processed

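Total RNA of 7 fibroblast clones was labelled with a whole-transcript kit, per the labels' protocols, and read on 7 Affymetrix arrays. The authors deposited 1 column of log2 signal per array; R 2.8.0 and affy are named by the submitters' processing notes. Sources used here do not give the summarisation, background correction or normalization, and the scale was inferred from the range of the values. Array medians lay between 5.38 and 5.49, and pairs of arrays correlated at 0.979 to 0.99. The number of arrays limits the precision.

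Of 34760 probe sets, 21640 had a single gene symbol, 1321 several, and 11799 were not listed with a gene, by the platform annotation. For 19937 genes the probe set with the highest mean was used, and testing covered the 16801 genes whose signal on 2 or more arrays exceeded the 25th percentile there. Group means were fitted to the 7 arrays by lmFit and eBayes of limma 3.58.1 under R 4.3.3 (two-sided, 4 residual and 2.06 prior degrees of freedom), with Benjamini-Hochberg adjustment over all tested genes and a threshold of 0.05. "Rose" and "fell" mean passing it. The code was tested on simulated data. P-values measure the spread between clones, which no label used here ties to separate animals.

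The members and lists were chosen with earlier results of these data known. Values on every array are given for Hox genes called in any comparison, the 5 of smallest p where fewer were called, and the largest rise and fall of each cluster; others were chosen after their values were seen. Companion genes are the called members of a list, otherwise the 2 of smallest p. RefSeq (GRCm38.p6) served for gene order and sequences; the build of the array annotation is not given in the sources used here. Alternatives were another filter, normalization, probe set rule, a replicate block, left-out arrays and a fit of 2 groups.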

Additional observations from a re-analysis of the deposited data

Results flagged for a closer look

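The knockout and knockdown clones differed for 5 Hox genes in their direct comparison (limma, adjusted over all tested genes). Clone, origin and genotype cannot be told apart in it. The log2 difference, knockout minus knockdown, was 4.33 for Hoxc5, 3.92 for Hoxc6, 4.17 for Hoxc8 and 1.43 for Hoxb2, and -1.36 for Hoxa2. For the 4 genes with a positive difference the knockdown arrays lay at the wild-type level. Hoxa2 was below wild type on both knockout arrays and above it on both knockdown arrays. The call of Hoxa2 was kept without wild-type array 1 (limma adjusted p = 0.0485) and lost without wild-type array 2 (0.0768) or 3 (0.0857). Leaving out a knockout or knockdown array leaves 1 clone in that group. Over all 15 alternatives the Hoxa2 difference ran from -1.469 to -1.261 and its limma adjusted p from 0.0124 to 0.307.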

How the results depend on the processing

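The number of Hox genes called in knockout against wild type was 4. It was 7 with arrays centred on their medians and 1 with only the 2 groups compared. With the stricter filter (above the median on 2 arrays) it was 7 of 21 tested Hox genes. The 6 called higher there were Hoxb2, Hoxb4, Hoxc5, Hoxc6, Hoxc8 and Hoxc9. All of them passed that filter only through the knockout arrays, so that setting is no support for their calls. Leaving out a knockout or knockdown array leaves 1 clone in that group, with no spread of its own. The count was 4 without wild-type array 1 and 1 without wild-type array 2 or 3. In knockdown against wild type it was 0 in all 15 alternatives, with 3 to 5 at an unadjusted p under 0.05. Between knockout and knockdown it was 5, and 0 with only the 2 groups compared. Without wild-type array 1, 2 or 3 in turn it was 5, 3 and 2. Why the counts moved with the setting was not tested. A replicate block gave 0 calls in knockout against wild type and 0 between knockout and knockdown, but same-numbered arrays share only a number (correlation of deviations 0.00196 between knockout and knockdown, and -0.0738 to 0.199 with wild type). Over all genes the calls were 28 in knockout (1 to 79 over alternatives; 61 higher and 10 lower when centred, against 20 and 8), 3 in knockdown (0 to 3) and 63 between both (0 to 137). All differences of the 5 called Hox genes kept their direction in the comparisons that called them. Their arrays did not overlap there, so leaving out arrays or changing the filter could not have turned a sign. Among uncalled genes some signs turned with single arrays left out. In knockout these ran from -0.225 to 0.412 for Hoxa7, -0.575 to 1.524 for Hoxd8, -0.1 to 0.005 for Hoxb1 and -0.19 to 0.027 for Hoxd11. In knockdown they ran from -0.236 to 0.005 for Hoxa6 and -0.023 to 0.112 for Hoxb2. Without both arrays numbered 2, Hoxa7 (-0.225), Hoxd8 (-0.575), Hoxa6 (0.005) and Hoxb2 (-0.023) turned too, as did Hoxb1 (0.005) with the replicate block. Signals near the 25th percentile limit the folds of Hoxc4, Hoxc5 and Hoxc6.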

Other observations

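Crabp1, a cytoplasmic retinoic acid binding protein of embryonic mesenchyme and neural crest, was at 7.45 and 11.255 in knockout, 11.69 and 11.49 in knockdown, and 12.30, 11.82 and 11.76 in wild type. Knockout array 1 alone was low, and the gene was chosen after its values were seen (difference -2.61, limma adjusted p = 0.37). Sox2, a neural and stem cell transcription factor, was at 4.90 and 4.915 in knockout, 4.93 and 4.80 in knockdown, and 7.499, 5.53 and 5.02 in wild type. Wild-type array 1 was highest for it, as it was for Hoxc13, also chosen after the values were seen.

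The probe set shared by Hoxb7 and Hoxb8 was left out of the 37 genes. It read 3.63 and 3.92 in knockout, 3.69 and 3.815 in knockdown, and 3.69, 3.41 and 3.88 in wild type, below the 25th percentile of every array. Identical values on at least 3 arrays occurred for 8 of 37 Hox genes (21.6%) and for 26.5% of all tested genes. Hoxa13 and Hoxb13 read the same on all 3 wild-type arrays, 4.84 and 4.65, so their spread there is listed as 0.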
